A study of Drosophila melanogaster with 36 samples.

Results

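The proteasome subunit genes were followed in RNA-Seq of Drosophila S3 cells. They were taken as the genes of the count data whose FlyBase symbol begins with Prosalpha, Prosbeta, Rpn or Rpt and a digit, and which averaged at least 5 CPM, reads scaled by library size, over 36 libraries. This gave 34 genes out of 17142 counted genes, 15 of the core particle and 19 of the regulatory particle. A further 14 symbols began the same way and missed the floor. Of these, 7 had no read in any library and 5 had between 1 and 4 reads in all libraries together. Prosbeta2R2 had 22 reads in all. Rpt6R was just outside the floor with 2.06 CPM, and Rpt3R was just inside it with 8.20 CPM, from between 2 and 55 reads a library. The 34 genes lie on all major arms, with 11 on 2R, 10 on 3R, 5 on 3L, 4 on 2L and 4 on X.

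S3 is a line of cells from Drosophila embryos, and all 36 libraries were made from poly(A) RNA after 4 h of treatment. The 3 groups with an active derivative received 1 µM of THI-4 (active CT1), TPE-69 (active CT2) or AU-6 (active CT3), where CT stands for chemotype, a chemical scaffold found in a screen for low lipid storage. The 3 groups with an inactive derivative received 1 µM of THI-68 (inactive CT1), TPE-67 (inactive CT2) or AU-73 (inactive CT3), derivatives with little or no activity on lipid storage. These 6 groups also held 200 µM oleic acid (OA) and 0.1% DMSO, the solvent. Cells of vehicle OA received OA and DMSO, cells of vehicle noOA DMSO alone, cells of OA oleic acid alone, and cells of noOA neither. OA and noOA had 6 libraries each and the other 8 groups 3 each. The labels do not say whether replicates were separate cultures, so p-values measure the spread between these libraries, which may be technical. All groups are of 1 cell line at 1 dose and 1 time, and the RNA is of bulk cells, in which fewer cells and less RNA per cell cannot be told apart.

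Libraries held between 1208200 and 9548314 counts, of which 34.7% to 51.5% lay on the 18S rRNA gene. That gene was left out of all totals, and the 34 genes took 0.540% to 0.644% of the remaining reads. The shallowest libraries were vehicle noOA replicate 1, vehicle OA replicate 3 and noOA replicate 1, with 714517, 709547 and 1154143 counts outside 18S. The study's table of levels per library holds 22 libraries, all with DMSO, and none of OA or noOA. The first 2 are not in it and were left out of the tests. Whether the study would have kept noOA replicate 1 cannot be told from that table, and it was tested here. Its highest Spearman correlation with a library of its group was 0.931, against 0.914 and 0.912 for the first 2. All 22 libraries of that table had a higher value, the lowest being 0.945 for inactive CT3 replicate 3. The study removed replicates by a cut on Spearman correlation, so noOA replicate 1 may have failed it. As for the cells, 6 of 7 hemocyte markers passed 5 CPM, led by Pxn and srp, whereas 0 of 5 testis germline and 0 of 4 fat body markers did, with 1 of 4 muscle markers (Act57B) and 2 of 4 neuron markers.

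The proteasome is the protease that degrades proteins tagged with ubiquitin. Its core particle is a barrel of stacked rings, in which the alpha subunits form the outer rings and control entry, and the beta subunits form the inner rings, with the proteolytic sites of Prosbeta1 (caspase-like), Prosbeta2 (trypsin-like) and Prosbeta5 (chymotrypsin-like) facing the inside. The regulatory particle caps the barrel. Its base holds a ring of ATPases (Rpt) that unfold substrates and non-ATPase subunits that bind ubiquitin, and its lid holds Rpn11, which removes the ubiquitin chain. Subunit genes are often transcribed together, in flies under the control of cnc, the homolog of mammalian Nrf factors.

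Core subunit genes had higher levels per length than regulatory ones. Levels are given as FPKM, fragments scaled by transcript length and library size, over the 33 libraries in which the authors' FPKM of the 18S gene was 0, since the other 3 libraries are on another scale. The median over genes was 139 FPKM for the 15 core genes and 77.1 FPKM for the 19 regulatory genes. Within the core, the 8 alpha genes had a median of 137 FPKM and the 7 beta genes 139 FPKM. Within the regulatory particle, the medians were 77.1 FPKM for the 7 ATPases of the base, 60.6 FPKM for the 4 other base genes and 87.2 FPKM for the 8 lid genes. The ranges of the particles overlapped, since core genes spanned 93.04 (Prosalpha4) to 228 FPKM (Prosbeta5) and regulatory genes other than Rpt3R spanned 47.5 (Rpn8) to 115 FPKM (Rpn9).

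Among the catalytic subunits, Prosbeta5 was the highest gene of all 34, with 228 ± 26.5 FPKM (mean ± SD, n = 33), and it ranked first in 34 of 36 libraries. Prosbeta2 had 133 ± 14.8 FPKM and Prosbeta1 110.0 ± 12.8 FPKM. The 3 proteolytic subunits, which sit in the same ring, thus differed in level by more than their SDs. Of the other beta genes, Prosbeta4 had 160.4 ± 23.2 FPKM, Prosbeta6 141 ± 15.5 FPKM and Prosbeta7 139 ± 14.5 FPKM, while Prosbeta3 had 95.1 ± 12.5 FPKM. Apart from Prosbeta3 and Prosbeta1, the beta genes all had a mean of at least 133 FPKM.

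Prosalpha6 was the highest alpha gene with 197 ± 22.3 FPKM and ranked first of all members in the 2 libraries in which Prosbeta5 did not. Prosalpha7 had 139 ± 16.8 FPKM, Prosalpha2 134 ± 13.4 FPKM, Prosalpha5 106 ± 10.2 FPKM, Prosalpha3 102 ± 10.47 FPKM and Prosalpha4 93.04 ± 11.9 FPKM. Neighbours in this order from Prosalpha5 down differed by less than their SDs. Prosalpha1 and Prosalpha1R are near-identical copies, listed at 139 ± 12.9 and 143 ± 12.9 FPKM. Reads may thus be shared between them, which was not examined, and how such reads were split is uncertain.

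In the base, Rpt1 was the highest ATPase gene with 105 ± 11.7 FPKM, followed by Rpt4 (83.97 ± 7.95 FPKM), Rpt2 (82.2 ± 11.6 FPKM), Rpt5 (77.1 ± 8.76 FPKM), Rpt6 (70.9 ± 9.503 FPKM) and Rpt3 (65.2 ± 7.33 FPKM). From Rpt4 down, each step in this order was smaller than the SDs. Rpt3R, a paralog of Rpt3 that is best known from testis, was listed at 4.82 ± 1.22 FPKM and was lowest of the members in all 36 libraries. Of the large scaffold subunits, Rpn1 had 73.1 ± 7.34 FPKM and Rpn2 57.8 ± 6.14 FPKM. The ubiquitin receptors Rpn13 and Rpn10 had 63.5 ± 7.69 and 54.7 ± 6.46 FPKM.

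Lid genes, most of which are structural, differed among themselves. Rpn9 was highest with 115 ± 13.2 FPKM, and the scaffold subunits Rpn5 and Rpn6 had 98.1 ± 10.9 and 95.4 ± 11.4 FPKM. The deubiquitinase Rpn11 had 88.3 ± 9.29 FPKM, whereas Rpn8, its partner without catalytic activity, was the lowest lid gene with 47.5 ± 6.45 FPKM. Rpn12 had 86.2 ± 9.65 FPKM, Rpn7 79.8 ± 7.69 FPKM and Rpn3 62.5 ± 7.75 FPKM.

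**Figure D1:**
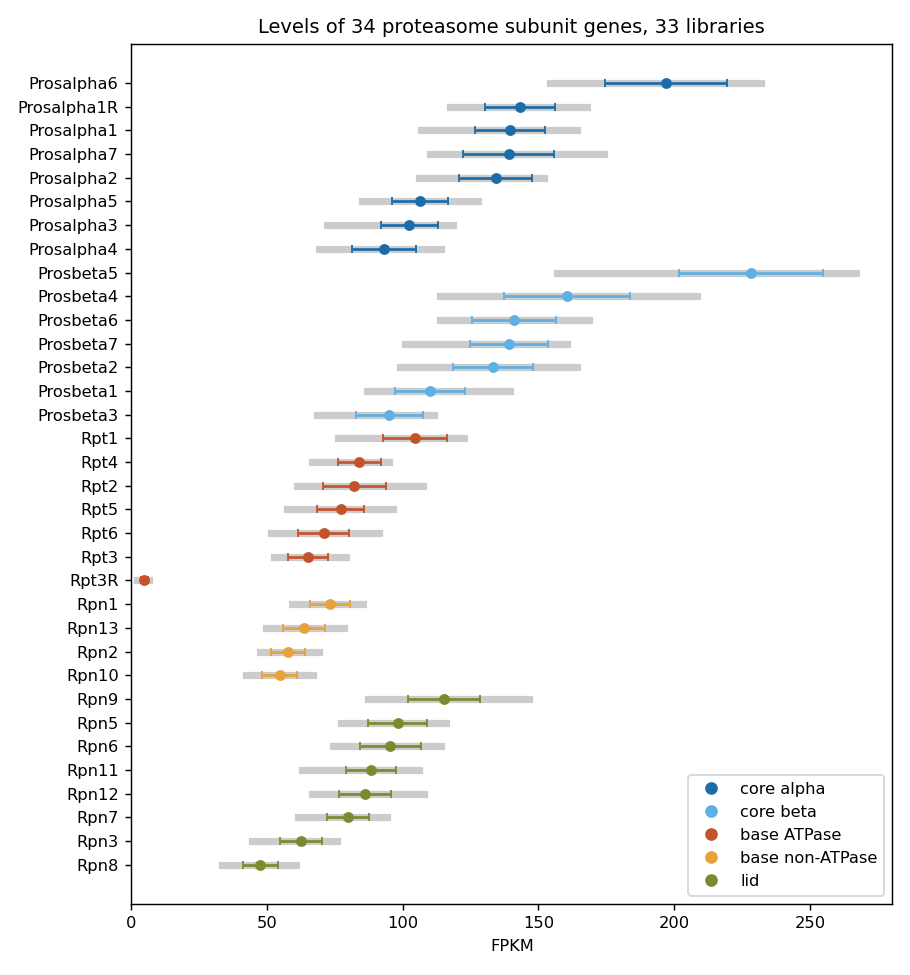
FPKM of each of the 34 genes on the horizontal axis, with points for means, bars for SDs and grey lines for the range over 33 libraries, coloured by role. Prosbeta5 lies highest at 228 FPKM, Rpt3R lowest at 4.82 FPKM, and most core genes lie right of the regulatory genes.

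Across the 10 groups the levels of the subunit genes varied little. Here CPM, counts scaled by edgeR's normalized library sizes, compare 1 gene between libraries. Without Rpt3R, the ratio of the highest to the lowest group mean ranged from 1.08 (Rpt1, an ATPase) to 1.347 (Prosbeta1), with a median of 1.17 over 33 genes. Prosbeta1 averaged 136 CPM in vehicle noOA and 101 CPM in inactive CT1. The coefficient of variation between replicates had a median of 6.75% and ranged from 3.70% (Rpt2) to 10.51% (Prosalpha3), and that between group means had a median of 5.04%. The spread between replicates is that of single libraries, whereas a group mean averages several libraries and so varies less by itself. These medians thus cannot tell whether the groups differed by more than their replicates did. Of the 33 genes, 27 had their highest mean in noOA or vehicle noOA, the groups without OA. The share of all genes with this pattern was not counted, so the count cannot be read as particular to the members.

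Summed over the 15 core genes, the level was 2379 ± 117, 2397 ± 70.2 and 2499 ± 17.2 CPM in active CT1, CT2 and CT3 (mean ± SD, n = 3 each). It was 2374 ± 92.1, 2525 ± 181 and 2479 ± 83.1 CPM in inactive CT1, CT2 and CT3. It was 2379 ± 18.1 CPM in vehicle OA and 2729.7 ± 74.4 CPM in vehicle noOA (n = 2 each), and 2413 ± 119.7 CPM in OA and 2579 ± 136 CPM in noOA (n = 6 each). The core sum was thus highest in the 2 groups without OA and in inactive CT2, where 1 library reached 2726 CPM.

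Summed over the 19 regulatory genes, the level was 3341 ± 38.2, 3252 ± 81.2 and 3305 ± 51.3 CPM in active CT1, CT2 and CT3. It was 3249.8 ± 92.1, 3367 ± 144 and 3274 ± 34.97 CPM in inactive CT1, CT2 and CT3. It was 3267 ± 64.8 CPM in vehicle OA and 3443 ± 81.9 CPM in vehicle noOA, and 3243 ± 88.5 CPM in OA and 3471 ± 110.2 CPM in noOA. Both groups without OA again had the highest means, and no test was made of the sums.

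**Figure D2:**
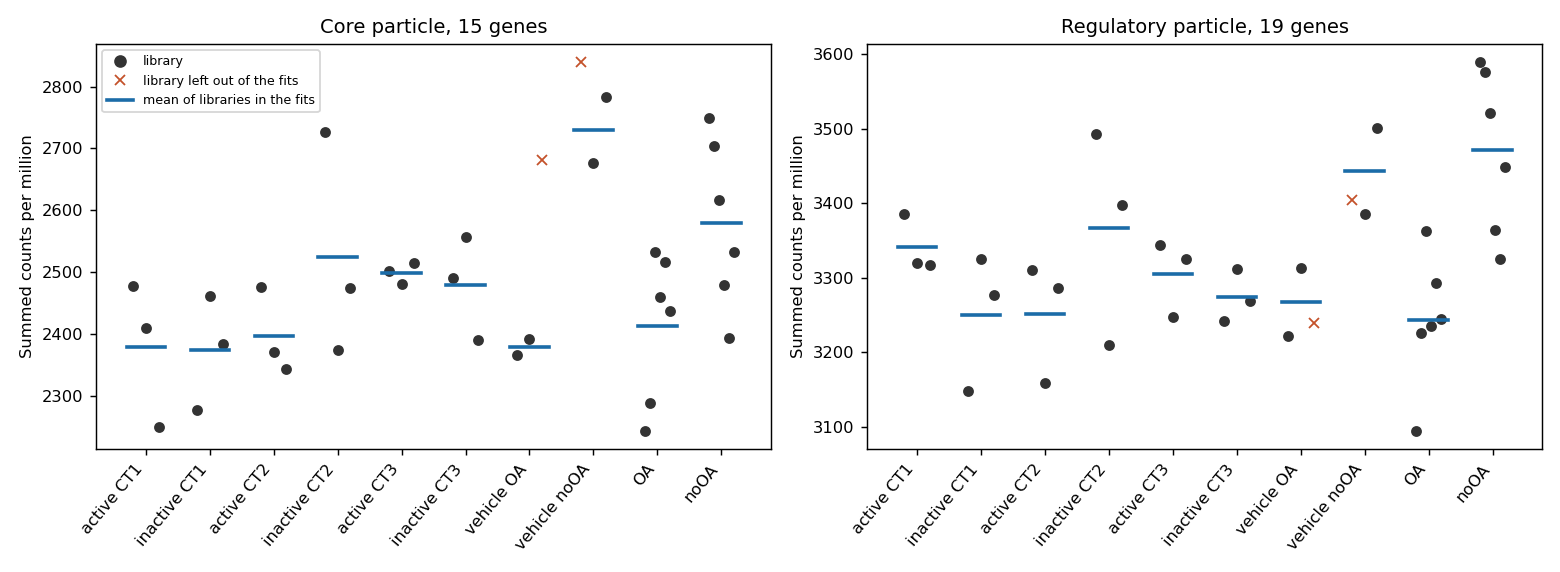
Summed CPM of the core genes (left) and regulatory genes (right) for each library in the 10 groups, with lines at the means of the libraries tested and crosses for the 2 libraries left out of the tests. The core mean is 2729.7 CPM in vehicle noOA, the highest of all groups, and lies between 2374 and 2525 CPM in the 8 groups with OA.

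In OA-fed cells, no subunit gene of either particle passed the threshold with 1 µM of an active derivative. A gene is called here at an adjusted p under 0.05 in edgeR's quasi-likelihood test over all 7531 genes tested. For active CT1 against vehicle OA, 0 of 34 genes were called by edgeR (background 12.1% of genes tested), and 2 had an unadjusted p under 0.05 (background 22.7%). For active CT2, 0 of 34 genes were called by edgeR (background 1.93% of genes tested), and 1 had an unadjusted p under 0.05 (background 9.76%). For active CT3, 0 of 34 genes were called by edgeR (background 4.82% of genes tested), and 1 had an unadjusted p under 0.05 (background 15.0%). DESeq2 and limma on FPKM called 0 of the 34 in each of these comparisons. The shares of all genes that they called are not given, here or in the comparisons below. Their counts of 0 thus cannot be taken as support from other tools.

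The median log2 fold change of the 34 genes against vehicle OA was 0.013 for active CT1, 0.017 for active CT2 and 0.050 for active CT3, where the median of all genes was -0.0042, -0.0033 and -0.0060. For core genes the medians were 0.0091, 0.015 and 0.067, and for regulatory genes 0.028, 0.020 and 0.016. In each of the 3 comparisons, 33 of the 34 genes had a 95% interval that lay within 0.5 on either side of 0, the exception being Rpt3R. Changes of a larger size are thus outside the intervals of these 33 genes, whereas smaller ones are not.

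Rpn13, a ubiquitin receptor of the base, had the smallest p with active CT1. Rpn13 had 184, 176 and 170.3 CPM in active CT1, against 156 and 151 CPM in vehicle OA (log2 fold change 0.21, standard error 0.0786, 95% interval 0.049 to 0.37, adjusted p = 0.0808). In a fit of all 36 libraries Rpn13 was called with active CT1, with a log2 fold change of 0.24 (edgeR, adjusted p = 0.0403). Rpn11, the deubiquitinase, had the smallest p with active CT2. Rpn11 had 135, 127 and 143 CPM in active CT2, against 147 and 163 CPM in vehicle OA (log2 fold change -0.20, standard error 0.0831, 95% interval -0.37 to -0.033, adjusted p = 0.337). With active CT3 the smallest p was that of Prosalpha1R, which may share reads with Prosalpha1. Prosalpha1R had 177, 186 and 185 CPM in active CT3, against 167 and 158 CPM in vehicle OA (log2 fold change 0.18, standard error 0.0758, 95% interval 0.022 to 0.33, adjusted p = 0.232). None of these 3 genes passed the threshold in the test over 22 libraries, and each was also the member of largest fold change in its comparison.

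With the inactive derivatives, too, no subunit gene was called, where at most 0.850% of all genes tested were. A count of 0 of 34 thus tells nothing of the subunit genes here. For inactive CT1 against vehicle OA, 0 of 34 genes were called by edgeR (background 0% of genes tested), and 1 had an unadjusted p under 0.05 (background 4.87%). For inactive CT2, 0 of 34 genes were called by edgeR (background 0.850% of genes tested), and 4 had an unadjusted p under 0.05 (background 10.3%). For inactive CT3, 0 of 34 genes were called by edgeR (background 0.0133% of genes tested), and 3 had an unadjusted p under 0.05 (background 7.65%). DESeq2 and limma called 0 of the 34 here too. The median log2 fold change of the members was 0.0063, 0.070 and 0.035, against 0.0013, 0.0072 and 0.0044 for all genes. All 6 comparisons share the same 2 vehicle OA libraries.

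Prosbeta7 had 177, 167 and 182 CPM in inactive CT1, against 199 and 198 CPM in vehicle OA, the smallest p with inactive CT1 (log2 fold change -0.17, standard error 0.0804, 95% interval -0.33 to -0.0060, adjusted p = 0.960). Rpt3R had the largest difference there, with 8.33, 4.99 and 10.9 CPM in inactive CT1, against 7.48 and 6.92 CPM in vehicle OA, a difference of few reads (log2 fold change 0.27, standard error 0.346, 95% interval -0.43 to 0.97, adjusted p = 0.981). Prosalpha1R had 196, 187 and 181 CPM in inactive CT2, against 167 and 158 CPM in vehicle OA, the smallest p with inactive CT2 (log2 fold change 0.21, standard error 0.0768, 95% interval 0.056 to 0.37, adjusted p = 0.240). It was also the gene named for active CT3, and the vehicle OA libraries were low for it in both. With inactive CT3, Rpn13 had 172, 176 and 182 CPM in inactive CT3, against 156 and 151 CPM in vehicle OA (log2 fold change 0.20, standard error 0.0818, 95% interval 0.035 to 0.37, adjusted p = 0.556). The alpha subunit gene Prosalpha5 had 107, 119 and 148 CPM in inactive CT3, against 109.7 and 97.96 CPM in vehicle OA, the largest difference with inactive CT3 (log2 fold change 0.24, standard error 0.104, 95% interval 0.027 to 0.45, adjusted p = 0.590). The libraries of Rpn13 in inactive CT3 and vehicle OA did not overlap, and those of Prosalpha5 overlapped.

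Active and inactive derivatives of a chemotype, given at the same 1 µM for the same 4 h, did not differ beyond the threshold in any subunit gene. For CT1, 0 of 34 genes were called by edgeR (background 12.7% of genes tested), and 1 had an unadjusted p under 0.05 (background 23%). For CT2, 0 of 34 genes were called by edgeR (background 2.43% of genes tested), and 4 had an unadjusted p under 0.05 (background 15.5%). For CT3, 0 of 34 genes were called by edgeR (background 3.70% of genes tested), and 0 had an unadjusted p under 0.05 (background 13.6%). DESeq2 and limma called 0 of the 34 in all 3. The median log2 fold change of active over inactive was 0.018 for CT1, -0.057 for CT2 and 0.0024 for CT3, against -0.0099, -0.0098 and -0.0055 for all genes. For CT2, 27 of 34 genes lay below 0, where 52.1% of all genes did. In all 3 chemotypes 33 of 34 intervals again lay within 0.5 of 0.

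Rpn13 had 184, 176 and 170.3 CPM in active CT1, against 163, 158 and 153 CPM in inactive CT1 (log2 fold change 0.17, standard error 0.0693, 95% interval 0.027 to 0.31, adjusted p = 0.117). Prosbeta6 had 176, 165 and 183 CPM in active CT2, against 203, 179.5 and 199 CPM in inactive CT2 (log2 fold change -0.17, standard error 0.0670, 95% interval -0.30 to -0.030, adjusted p = 0.199). Prosalpha5 had 107, 116 and 101 CPM in active CT3, against 107, 119 and 148 CPM in inactive CT3 (log2 fold change -0.18, standard error 0.0912, 95% interval -0.37 to 0.000030, adjusted p = 0.367). These were the genes of smallest p in the 3 chemotypes, the receptor Rpn13 being higher with the active derivative and the structural core subunits Prosbeta6 and Prosalpha5 lower, all without passing the test. The largest difference for CT1 was again that of the low gene Rpt3R, with 6.93, 4.77 and 11.8 CPM in active CT1, against 8.33, 4.99 and 10.9 CPM in inactive CT1 (log2 fold change -0.24, standard error 0.282, 95% interval -0.81 to 0.33, adjusted p = 0.679).

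The effect of active over inactive derivative was also compared between the 3 pairs of chemotypes, as a difference of fold changes. Between CT1 and CT2, 0 of 34 genes were called by edgeR (background 7.65% of genes tested), and 3 had an unadjusted p under 0.05 (background 19.1%). Between CT1 and CT3, 0 of 34 genes were called by edgeR (background 1.63% of genes tested), and 2 had an unadjusted p under 0.05 (background 11.1%). Between CT3 and CT2, 0 of 34 genes were called by edgeR (background 0.823% of genes tested), and 1 had an unadjusted p under 0.05 (background 9.81%). DESeq2 and limma called 0 as well. Rpt4 had the smallest p between CT1 and CT2 (difference 0.29, standard error 0.0993, 95% interval 0.089 to 0.49, adjusted p = 0.0684). It had 171, 181 and 184 CPM in active CT1, against 159, 173 and 157 CPM in inactive CT1, and 182, 172 and 172 CPM in active CT2, against 218, 199 and 177 CPM in inactive CT2. Without inactive CT2 replicate 3 this difference of the ATPase gene was 0.39 and passed the threshold in edgeR. Rpt2, another ATPase gene, had the smallest p between CT1 and CT3 (difference 0.21, standard error 0.0894, 95% interval 0.028 to 0.39, adjusted p = 0.350), and Rpn5 of the lid between CT3 and CT2 (difference 0.20, standard error 0.0902, 95% interval 0.014 to 0.38, adjusted p = 0.443). Rpt3R had the largest difference between CT1 and CT3 (-0.41) and between CT3 and CT2 (0.21), from few reads. The group means behind Rpt2 were 204 ± 1.82 and 190.2 ± 7.30 CPM in active and inactive CT1, and 196 ± 6.97 and 212 ± 1.58 CPM in active and inactive CT3 (n = 3 each). Those behind Rpn5 were 258 ± 7.45 and 247 ± 8.76 CPM for CT3, and 252 ± 16.8 and 277 ± 12.1 CPM for CT2.

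**Figure D3:**
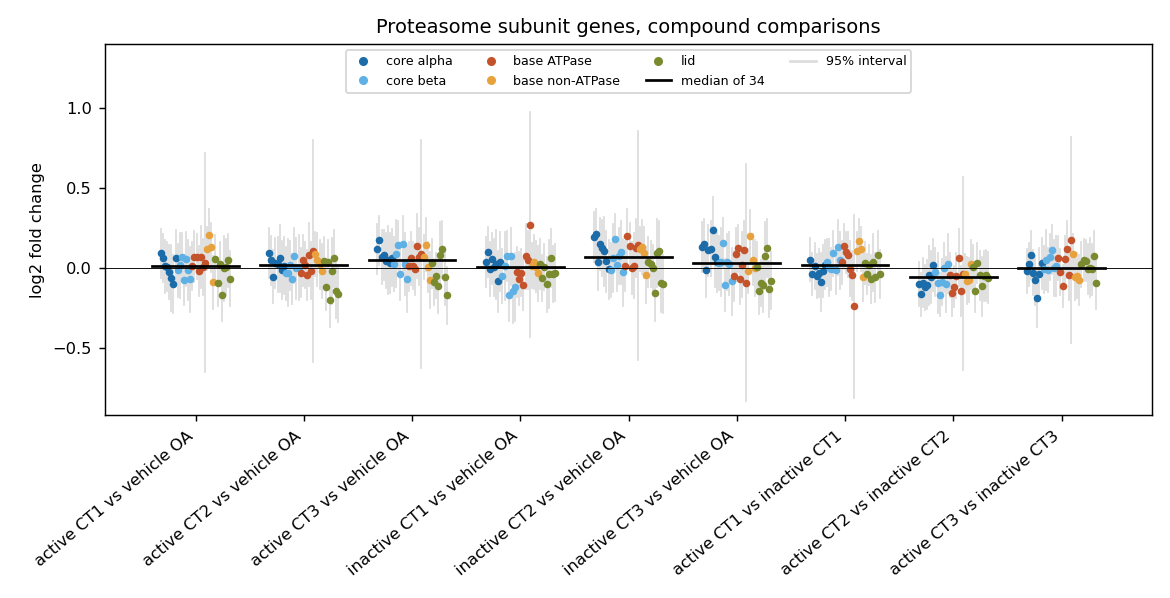
Log2 fold changes of the 34 genes in the 9 compound comparisons, with 1 point a gene coloured by role, grey 95% intervals and black lines at the medians. Medians lie between -0.057 and 0.070, and the widest intervals are those of Rpt3R.

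In cells without DMSO, 4 subunit genes of the regulatory particle were called lower with oleic acid. In OA against noOA, with 6 libraries each and 7460 genes tested, 4 of 34 genes were called lower and 0 higher (background 6.70% of genes called lower, and 13.6% called in either direction). The share of members called, in either direction, was thus not above that of all genes. The 4 called genes were Rpt6, Rpt5 and Rpt2, 3 of the 7 base ATPases, which unfold substrates, and Rpn3, a structural lid subunit. No ATPase gene other than these was called, and Rpt3R lay above 0. In all, 32 of 34 genes lay below 0, where 50.9% of all genes did. These were 15 of 15 core and 17 of 19 regulatory genes. The median log2 fold change was -0.090 for the 34 genes, -0.086 for the core and -0.093 for the regulatory particle, against -0.0037 for all genes. An unadjusted p under 0.05 was reached by 17 genes, 7 of the core and 10 of the regulatory particle, all lower in OA, where 967 of 7460 genes, or 13%, reached it and were lower.

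Rpt6 had lowest 109, median 126 and highest 139 CPM in OA, against lowest 135, median 149.6 and highest 189 CPM in noOA (log2 fold change -0.26, standard error 0.0665, 95% interval -0.40 to -0.13, adjusted p = 0.00584). The groups of Rpt6 overlapped, although their means of 126 ± 11.04 and 153 ± 19.9 CPM in OA and noOA (SD, n = 6 each) made it the largest fall of the 34. Rpt5 had lowest 155, median 160.5 and highest 169 CPM in OA, against lowest 178, median 181 and highest 199.6 CPM in noOA (log2 fold change -0.17, standard error 0.0447, 95% interval -0.26 to -0.082, adjusted p = 0.00704). Every OA library lay below every noOA library for this gene. Rpt2 had lowest 189, median 201 and highest 213 CPM in OA, against lowest 218, median 221 and highest 224 CPM in noOA (log2 fold change -0.14, standard error 0.0427, 95% interval -0.22 to -0.051, adjusted p = 0.0266). Its groups did not overlap either. Rpn3 had lowest 133, median 140.1 and highest 149 CPM in OA, against lowest 143, median 154 and highest 178 CPM in noOA (log2 fold change -0.16, standard error 0.0530, 95% interval -0.27 to -0.051, adjusted p = 0.0405). Here the groups overlapped. Rpn5, a lid subunit that was not called, also had groups that did not overlap (log2 fold change -0.12, adjusted p = 0.0699), so that 3 of 34 genes had all OA libraries below all noOA libraries (background 3.11%).

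The calls of Rpt6 and Rpt5 remained when any 1 of the 12 libraries was left out. Rpt2 was not called without noOA replicate 6 (adjusted p = 0.0612) or without OA replicate 1 (0.0546). Rpn3 was not called in 6 of these 12 fits, namely without noOA replicates 1, 2 or 5 (adjusted p = 0.0830, 0.110 and 0.0502) and without OA replicates 1, 2 or 4 (0.0848, 0.0961 and 0.0716). DESeq2 called 3 of the 4 and lost Rpn3 (adjusted p = 0.0663). Among the other edgeR fits, Rpn3 was lost in a fit of OA and noOA alone (0.0525) and with the replicate block (0.0845), and Rpt2 with no filter on low counts (0.0767) and with the block (0.0582). Over all 24 alternatives, Rpt6 and Rpt5 were called in 20 each, Rpt2 in 15 and Rpn3 in 10. The alternatives include limma fits on unscaled FPKM, which held noOA replicate 1, a library on another FPKM scale. Those fits mix scales and cannot decide whether the calls hold. The count of members called lower was 2 without OA replicate 1 (6.59% of all genes in that fit) and 7 without noOA replicate 5 (6.61%). In limma on FPKM scaled to equal upper quartiles, 0 of the 34 were called, with adjusted p = 0.0615 for Rpt6, 0.106 for Rpt5, 0.744 for Rpt2 and 0.122 for Rpn3.

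**Figure D4:**
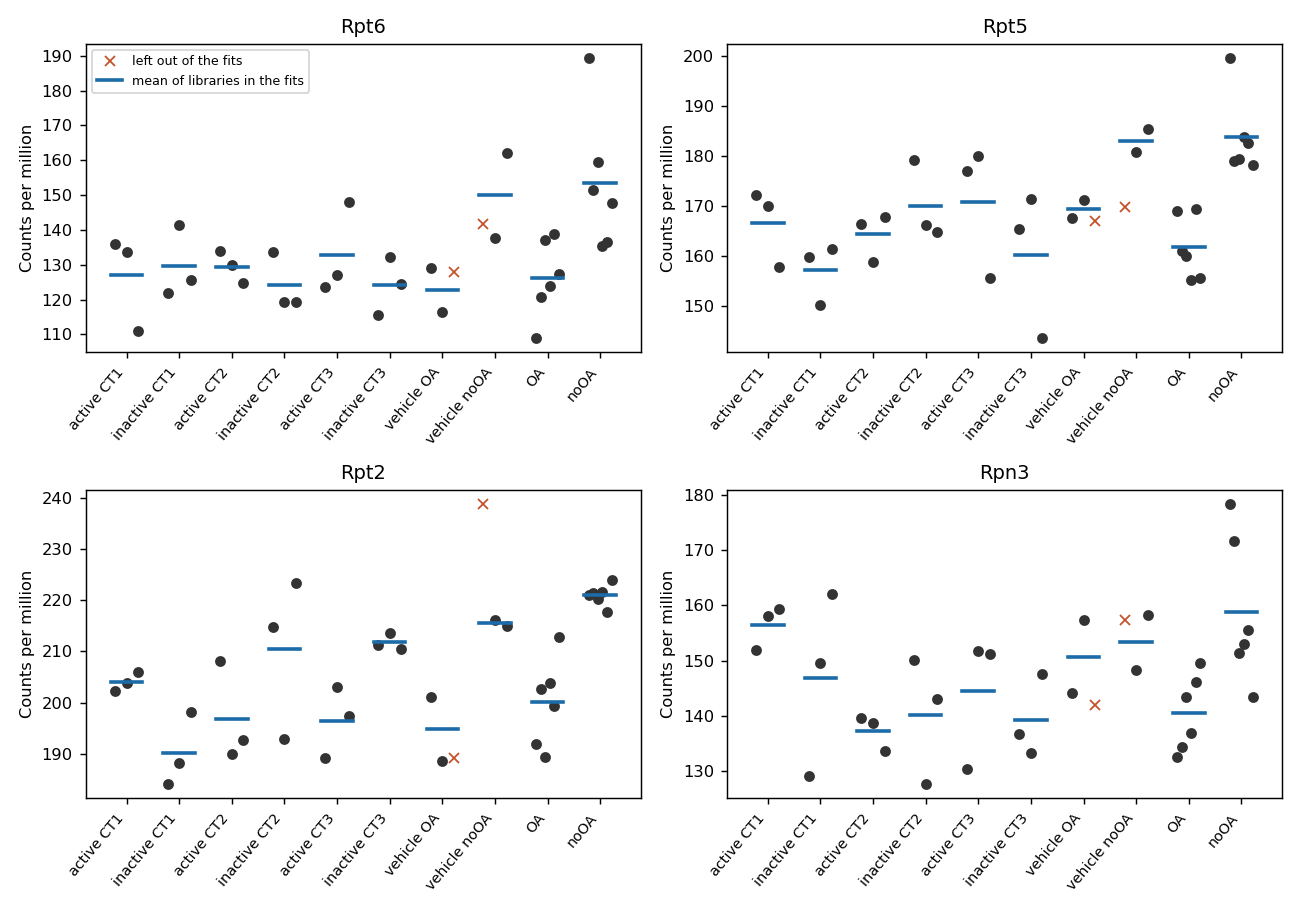
CPM of Rpt6, Rpt5, Rpt2 and Rpn3 in each library of the 10 groups, with lines at the means of the libraries tested and crosses for the 2 libraries left out. The OA mean lies below the noOA mean in each panel, at 126 and 153 CPM for Rpt6, and the 2 groups do not overlap for Rpt5 and Rpt2.

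The catalytic core genes had smaller differences and none was called in OA against noOA. Prosbeta1 had lowest 92.6, median 106 and highest 115 CPM in OA, against lowest 103, median 113 and highest 136 CPM in noOA (log2 fold change -0.13, standard error 0.0621, 95% interval -0.26 to -0.0048, adjusted p = 0.175). Prosbeta2 had lowest 146, median 159 and highest 165 CPM in OA, against lowest 151, median 165 and highest 199 CPM in noOA (log2 fold change -0.077, standard error 0.0532, 95% interval -0.19 to 0.031, adjusted p = 0.391). Prosbeta5 had lowest 261, median 306 and highest 321 CPM in OA, against lowest 306, median 329 and highest 356 CPM in noOA (log2 fold change -0.12, standard error 0.0503, 95% interval -0.22 to -0.016, adjusted p = 0.123). All 3 had overlapping groups. Among the other core genes, Prosbeta4 (-0.16) and Prosalpha4 (-0.15) had the largest log2 fold changes, with adjusted p = 0.0644 and 0.0773 in edgeR, and Prosalpha3 had the smallest (-0.017). In the regulatory particle, Rpn12 of the lid had -0.15, whereas Rpn11 and Rpt3R were the 2 genes above 0, with 0.0018 and 0.098.

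With DMSO present, OA went with lower values for most subunit genes, and none was called. In vehicle OA against vehicle noOA, with 2 libraries each, 0 of 34 genes were called by edgeR (background 6.55% of genes tested), and 12 had an unadjusted p under 0.05 (background 19.0%). DESeq2 and limma called 0. Of the 34 genes 33 lay below 0, where 50.3% of all genes did, the exception being the scaffold gene Rpn2. The median log2 fold change was -0.15 for the 34 genes, -0.21 for the core and -0.11 for the regulatory particle, against -0.0014 for all genes. The 12 genes with an unadjusted p under 0.05 comprised 10 core and 2 regulatory genes. The groups did not overlap and vehicle OA was lower for 22 genes, 13 of the core and 9 of the regulatory particle, where 25.3% of all genes did.

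Prosalpha1R had 167 and 158 CPM in vehicle OA, against 184 and 199.9 CPM in vehicle noOA (log2 fold change -0.25, standard error 0.0808, 95% interval -0.41 to -0.082, adjusted p = 0.0597). It had the smallest p. Prosbeta4 had 117 and 113 CPM in vehicle OA, against 133 and 149.8 CPM in vehicle noOA (log2 fold change -0.30, standard error 0.108, 95% interval -0.52 to -0.084, adjusted p = 0.0881). This beta gene had the largest difference. Prosbeta1 had 111 and 111 CPM in vehicle OA, against 124 and 148 CPM in vehicle noOA (log2 fold change -0.29, standard error 0.100, 95% interval -0.49 to -0.086, adjusted p = 0.0768). Prosbeta2 had 147 and 155 CPM in vehicle OA, against 167 and 183 CPM in vehicle noOA (log2 fold change -0.21, standard error 0.0915, 95% interval -0.39 to -0.020, adjusted p = 0.199). Prosbeta5 had 287 and 316 CPM in vehicle OA, against 347 and 361 CPM in vehicle noOA (log2 fold change -0.23, standard error 0.0883, 95% interval -0.41 to -0.049, adjusted p = 0.125). The libraries of all 3 catalytic genes did not overlap between the groups. The 4 genes called in OA against noOA had log2 fold changes of -0.29 (Rpt6), -0.11 (Rpt5), -0.15 (Rpt2) and -0.016 (Rpn3) with DMSO, with edgeR's adjusted p = 0.0856, 0.523, 0.300 and 0.951. Rpn2 had 316 and 287 CPM in vehicle OA, against 255 and 277 CPM in vehicle noOA (log2 fold change 0.18, standard error 0.0845, 95% interval 0.0082 to 0.35, adjusted p = 0.232). The count of calls depended on the fit. A fit of these 2 groups alone called 6 genes lower, Prosbeta1, Prosbeta4, Prosbeta5, Prosalpha1R, Prosalpha6 and Rpt6, where 5.59% of all genes in that fit were called lower, and leaving out vehicle noOA replicate 2 called 1, Prosbeta1, where 138 of 7676 genes, or 1.8%, were.

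The 2 comparisons with OA share no library. In both of them 31 of the 34 genes lay below 0. Of all genes, 50.9% lay below 0 in OA against noOA and 50.3% in vehicle OA against vehicle noOA. The share below 0 in both was not counted. The difference of the OA effect with and without DMSO was tested for each gene. By edgeR, 0 of 34 genes were called (background 0% of genes tested), a count that tells nothing of the members. An unadjusted p under 0.05 was reached by 1 of the 34 (background 3.89%). DESeq2 and limma called 0. Rpn2 had the smallest p (difference 0.24, standard error 0.0898, 95% interval 0.059 to 0.42, adjusted p = 0.999) and Rpt3R the largest difference (difference -0.27, standard error 0.341, 95% interval -0.96 to 0.43, adjusted p = 0.999). For the catalytic genes the differences were -0.15 (95% interval -0.41 to 0.10) for Prosbeta1, -0.13 (-0.35 to 0.098) for Prosbeta2 and -0.11 (-0.31 to 0.10) for Prosbeta5. These intervals include 0 and reach the size of the OA effects themselves.

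**Figure D5:**
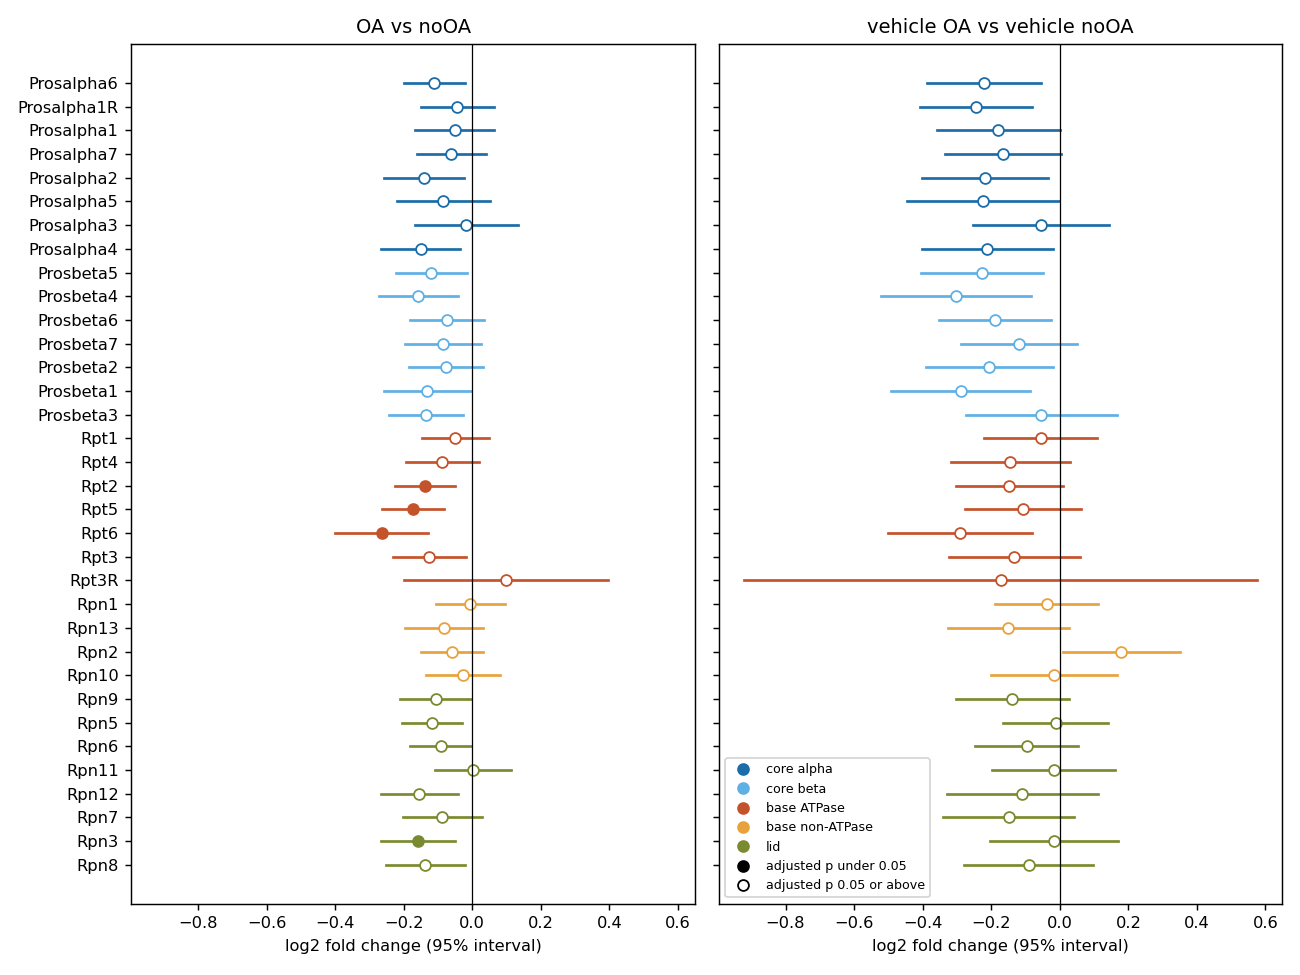
Log2 fold changes with 95% intervals of the 34 genes in OA against noOA (left) and vehicle OA against vehicle noOA (right), coloured by role and filled where the adjusted p is under 0.05. The 4 filled points on the left are Rpt6, Rpt5, Rpt2 and Rpn3, no point on the right is filled, and 32 and 33 of the 34 points lie below 0.

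With 0.1% DMSO no subunit gene was called, but next to none of all genes tested was called either. These counts thus tell nothing of the members. In vehicle noOA against noOA, 0 of 34 genes were called by edgeR (background 0.0134% of genes tested), and 2 had an unadjusted p under 0.05 (background 6.43%). In vehicle OA against OA, 0 of 34 genes were called by edgeR (background 0% of genes tested), and 1 had an unadjusted p under 0.05 (background 5.25%). DESeq2 and limma called 0 in both. Rpn2 had 255 and 277 CPM in vehicle noOA, against lowest 290.2, median 307 and highest 318 CPM in noOA (log2 fold change -0.20, standard error 0.0635, 95% interval -0.33 to -0.072, adjusted p = 0.659). It had the smallest p without OA. Prosbeta1 had 124 and 148 CPM in vehicle noOA, against lowest 103, median 113 and highest 136 CPM in noOA (log2 fold change 0.26, standard error 0.0860, 95% interval 0.083 to 0.43, adjusted p = 0.659). This catalytic gene had the largest difference. Prosbeta3 had 104 and 104 CPM in vehicle OA, against lowest 85.8, median 91.9 and highest 99.3 CPM in OA (log2 fold change 0.17, standard error 0.0790, 95% interval 0.0050 to 0.33, adjusted p = 0.923). It had the smallest p with OA, whereas Rpt3R had the largest difference (log2 fold change -0.38, standard error 0.247, 95% interval -0.89 to 0.12, adjusted p = 0.942), with 7.48 and 6.92 CPM in vehicle OA, against lowest 8.83, median 9.14 and highest 10.9 CPM in OA. The vehicle groups had 2 libraries each in these tests.

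The balance of the particles was described by the summed FPKM of the regulatory genes as a percentage of that of the core genes in the same library. It was 70.9 ± 2.96%, 67.6 ± 2.32% and 67.1 ± 1.22% in active CT1, CT2 and CT3, and 69.4 ± 0.829%, 67.4 ± 2.52% and 67.9 ± 1.56% in inactive CT1, CT2 and CT3 (SD, n = 3 each). It was 69.5 ± 1.57% in vehicle OA and 64.1 ± 0.210% in vehicle noOA (n = 2 each), and 69.5 ± 2.28% in OA and 67.9 ± 2.77% in noOA (n = 6 each). The group means thus spanned few percentage points, with vehicle noOA lowest and active CT1 highest. The 3 shallowest libraries had the 3 lowest values of all 36, with 56.4% in vehicle noOA replicate 1, 58.3% in vehicle OA replicate 3 and 62.8% in noOA replicate 1, and the part of depth in this was not tested.

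Of the regulators of proteasome gene transcription, Keap1, the repressor that holds cnc in check in flies, was called higher with OA. Against vehicle OA, Keap1 was also called higher with each active derivative, but against the inactive derivative with CT1 alone. The list held 5 genes, cnc, its partner maf-S, Keap1, rngo and Pngl, all of which were tested. In OA against noOA 2 of 5 were called higher and 0 lower (background 13.6% called in either direction). Keap1 had lowest 156, median 169 and highest 179.9 CPM in OA, against lowest 125, median 135 and highest 161 CPM in noOA (log2 fold change 0.27, standard error 0.0557, adjusted p = 6.97e-04), and cnc had lowest 1513, median 1596 and highest 1677 CPM in OA, against lowest 1343, median 1419 and highest 1502 CPM in noOA (0.16, standard error 0.0431, adjusted p = 0.00866). The same 2 of 5 were called higher in vehicle OA against vehicle noOA (background 6.55%), with 0.36 for Keap1 (adjusted p = 0.00763) and 0.21 for cnc (0.0425). In that comparison of 2 and 2 libraries, the call of cnc was lost on leaving out any 1 of the 4 (0.17 to 0.26), and that of Keap1 without vehicle noOA replicate 2 (0.32, adjusted p = 0.0997) or vehicle OA replicate 2 (0.32, 0.131). DESeq2 kept these 4 calls. Limma on FPKM kept those of OA against noOA in 1 of 4 fits for each gene, the fit of scaled FPKM, and those with DMSO in 1 of 4 fits for Keap1 and 0 of 4 for cnc. The unscaled fits of OA against noOA held noOA replicate 1, whose FPKM are on another scale, and cannot decide whether those calls hold.

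With 1 µM derivative, Keap1 had 243, 218 and 221 CPM in active CT1, against 167 and 174 CPM in vehicle OA (log2 fold change 0.42, standard error 0.0739, adjusted p = 3.67e-05). It had 220.5, 206 and 209 CPM in active CT2 (0.31, standard error 0.0754, adjusted p = 0.0109) and 218, 218 and 197 CPM in active CT3 (0.29, standard error 0.0765, adjusted p = 0.0130). In each of these comparisons 1 of 5 regulators was called, where 12.1%, 1.93% and 4.82% of all genes were for CT1, CT2 and CT3. The Keap1 call remained without any 1 library for CT1 alone. For CT2 it was lost without vehicle OA replicate 1 (0.29, adjusted p = 0.191) or 2 (0.35, 0.139) or active CT2 replicate 1 (0.29, 0.0607), and for CT3 without vehicle OA replicate 1 (0.27, 0.160) or 2 (0.33, 0.0969) or active CT3 replicate 1 (0.27, 0.0513) or 2 (0.27, 0.0628). DESeq2 kept the Keap1 call for all 3 active derivatives, and limma on FPKM kept it in 4 of 4 fits for CT1 and in 0 of 4 for CT2 (adjusted p = 0.119 to 0.426) and for CT3 (0.112 to 0.550). With the inactive derivatives 0 of 5 regulators were called, where 0%, 0.850% and 0.0133% of all genes were called for CT1, CT2 and CT3, so that this count tells nothing of the regulators. The log2 fold changes of Keap1 were 0.12, 0.22 and 0.10 for CT1, CT2 and CT3. Active CT1 was above inactive CT1 for Keap1 (0.30, standard error 0.0645, adjusted p = 8.01e-04), where 12.7% of all genes were called. For CT2 and CT3 the difference of Keap1 was not called (0.092 and 0.19, adjusted p = 0.534 and 0.123), where 2.43% and 3.70% of all genes were. In active against inactive CT1, maf-S was called lower (-0.50, standard error 0.164, adjusted p = 0.0373), a call of a low gene that remained in 1 of 6 fits without 1 library. It was lost in DESeq2 (adjusted p = 0.177), in 3 of 6 other edgeR fits and in all 4 fits of limma on FPKM.

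Ubiquitin supply and delivery was followed over 9 genes. In OA against noOA 1 was called higher and 2 lower (background 13.6% in either direction and 6.70% lower), Ubi-p63E with 0.30, standard error 0.0513, adjusted p = 8.68e-05, Ubi-p5E with -0.35, standard error 0.0467, adjusted p = 1.44e-06, and Npl4, an adaptor of substrates, with -0.18, standard error 0.0490, adjusted p = 0.0130. Ubi-p63E and Ubi-p5E both encode chains of ubiquitin repeats, so reads may be shared between them and both values are uncertain. The same 2 genes were called in the same directions in vehicle OA against vehicle noOA, where 6.55% of all genes were called (0.36 and -0.35, adjusted p = 0.0154 and 0.00436). There the call of Ubi-p63E was lost in 3 and that of Ubi-p5E in 2 of 4 fits without 1 library. Ubi-p63E was higher with active CT1 than with vehicle OA (0.41, standard error 0.0852, adjusted p = 4.16e-04, and without vehicle OA replicate 2 0.35 and adjusted p = 0.0527) and than with inactive CT1 (0.44, standard error 0.0755, adjusted p = 2.23e-05). It was 1 of 9 genes called in both, where 12.1% and 12.7% of all genes were. Ubi-p5E was lower with the active than the inactive derivative of CT2 (-0.27, standard error 0.0663, adjusted p = 0.0167) and CT3 (-0.26, standard error 0.0667, adjusted p = 0.0132), calls that remained in 3 and 2 of 6 fits without 1 library. Of all genes, 2.43% and 3.70% were called there. DESeq2 kept all of these calls of the 9 genes. Limma on FPKM kept both calls of Ubi-p63E with active CT1 in 4 of 4 fits, and each of the others in 0 or 1 of 4. For OA against noOA, the unscaled fits held noOA replicate 1, whose FPKM are on another scale, and cannot decide this. A fit of the groups compared alone lost the call of Ubi-p5E for CT2 (edgeR, adjusted p = 0.118). With active CT2, active CT3 and the inactive derivatives against vehicle OA, 0 of 9 were called, where between 0% and 4.82% of all genes were.

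Activators, inhibitors and assembly factors of the proteasome were followed over 6 genes, among them REG, Pomp and PI31. None was called in OA against noOA (background 13.6%) or in vehicle OA against vehicle noOA (background 6.55%), where the medians of the 6 log2 fold changes were -0.031 in OA against noOA and -0.033 in vehicle OA against vehicle noOA. CG8858 was called higher with active CT1 than with vehicle OA (0.33, standard error 0.0904, adjusted p = 0.0108, and without vehicle OA replicate 2 0.22 and adjusted p = 0.382) and than with inactive CT1 (0.25, standard error 0.0790, adjusted p = 0.0297). It was 1 of 6 genes in both, where 12.1% and 12.7% of all genes were called. PI31, a regulator that binds the core particle, was called lower with active than inactive CT3 (-0.28, standard error 0.0776, adjusted p = 0.0304), where 3.70% of all genes were called. The call of CG8858 against inactive CT1 remained in 3 of 6 fits without 1 library, and that of PI31 in 2 of 6. Both were lost in DESeq2 (adjusted p = 0.0741 for CG8858 and 0.0820 for PI31), and PI31 also in edgeR with no filter on low counts (0.0545). Limma on FPKM kept CG8858 in 0 of 4 fits in both comparisons and PI31 in 1 of 4. REG, an activator cap, and Pomp, an assembly chaperone, were called in none of the 13 comparisons.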

How the data were processed

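RNA-Seq of 36 libraries of S3 cells was used. The authors aligned the reads with TopHat2 2.0.10 to the genome of BDGP release 5, counted them per gene and strand with HTSeq 0.5.4p1, and deposited the counts without normalization. The authors deposited FPKM values from Cufflinks 2.1.1 as well, for 17062 of the 17142 genes. Symbols of 16815 gene identifiers came from a reference table of gene names, and chromosome arms from an annotation of the release 6 assembly. CPM were computed without the 18S rRNA gene. Replicates with a low Spearman correlation had been removed in the study. Its list of libraries holds only libraries with DMSO, and the 2 libraries with DMSO absent from it were left out of the tests. All libraries of OA and noOA were kept.

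Counts were tested with edgeR 4.0.16 in R 4.3.3 (TMM, filterByExpr, quasi-likelihood F test) in a fit of 22 libraries with DMSO (7531 genes) and a fit of 16 control libraries (7460 genes), tested on simulated data. Adjustment was that of Benjamini and Hochberg over all genes of a comparison, with 0.05 as the threshold. Standard errors were derived from the F statistic and intervals cover 95%. Alternatives were DESeq2 1.42.0, RLE factors, no filter, all libraries, only the groups compared, the 18S gene kept, the replicate number as a block, leaving out each library, and limma 3.58.1 on log2(FPKM + 1) or log2(FPKM + 0.1). After values were seen, scaling of FPKM to equal upper quartiles and leaving out noOA replicate 1 and OA replicate 3 together were added. The members, the lists and the rule for named genes (called genes, those of smallest p or largest fold change, the 3 highest and 3 lowest by FPKM, and catalytic subunits) were chosen with earlier results of these data known. Other genes given with values were chosen after values were seen. The symbols TER94, vas and Ecm29 were not matched to a gene of the count data. CG8858, which stands beside Ecm29 in the list of activators, inhibitors and assembly factors, was analysed under its own symbol. A permutation test planned for the ratio of the particles is not given. Sequences and promoters are not used here.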

Additional observations from a re-analysis of the deposited data

Results flagged for a closer look

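Of 76 values tested, the level of each gene and 4 particle measures in OA and in noOA, 6 had a library far from the other 5 by Dixon's criterion of 0.625, and chance flags about 5% of such groups. In noOA, replicate 1 was the highest library for Prosalpha1 (221 CPM, where the nearest library had 187 CPM), Rpn7 (196 CPM, where the nearest library had 163 CPM) and Rpt5 (199.6 CPM, where the nearest library had 184 CPM). It is the shallowest library of its group, with 1154143 counts outside 18S. Without it the log2 fold change of Rpt5 in OA against noOA was -0.16 (edgeR, adjusted p = 0.0154). In noOA, replicate 5 was the lowest library for Prosalpha6 (218 CPM, where the nearest library had 239 CPM) and Rpn10 (109 CPM, where the nearest library had 119 CPM). In OA, replicate 5 was the highest library for Rpt3R (10.9 CPM, where the nearest library had 9.53 CPM), a gene of few reads.

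The effect of active over inactive derivative differed between chemotypes, by edgeR's test of the difference itself, for 3 genes of the proteasome pathway lists and for 0 of the 34 subunit genes. The lists held 6, 9 and 5 genes tested. Of all genes, 7.65% were called between CT1 and CT2 and 1.63% between CT1 and CT3. Between CT1 and CT2 the difference on the log2 scale was 0.37 for PI31, 0.37 for Ubi-p63E and 0.34 for Ubi-p5E (adjusted p = 0.0231, 0.0222 and 0.0135). Between CT1 and CT3 it was 0.49 for PI31 (adjusted p = 0.00705). Of 12 fits without 1 library, the call remained in 7 for PI31, 6 for Ubi-p63E and 11 for Ubi-p5E between CT1 and CT2, and in 12 for PI31 between CT1 and CT3. Between CT1 and CT2, DESeq2 lost the call of PI31 (adjusted p = 0.0747) and edgeR on the groups compared alone that of Ubi-p63E (0.0519), and limma on FPKM kept PI31 and Ubi-p63E in 0 of 4 fits and Ubi-p5E in 1 of 4. Between CT1 and CT3 DESeq2 kept PI31, and limma kept it in 1 of 4 fits.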

How the results depend on the processing

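Of 1646 values under alternatives, 1438 kept their direction and their side of the threshold or moved little, 158 lost a call, 38 moved and 12 reversed. The 1438 include counts of 0 members called that stayed 0 where next to none of all genes was called, as with inactive CT1, inactive CT3 and DMSO. The share of unchanged values is thus no measure of how firm the results are. In OA against noOA, the count of members called lower was 2 with the replicate block (5.70% of all genes in that fit). It was 2 without noOA replicate 1 and OA replicate 3 together (5.86%). On leaving out 1 library it was 2 (without OA replicate 1, 6.59%) to 7 (without noOA replicate 5, 6.61%). It was 0 in all 4 fits of limma on FPKM, for which the share of all genes is not given. All of these but the scaled fit mixed FPKM scales, through noOA replicate 1. In vehicle OA against vehicle noOA the count was 1 with no filter (Prosbeta4, 2.43% of all genes called lower). It was 1 in a fit of all 36 libraries (Prosbeta2, 3.31%), 6 in a fit of those groups only (5.59%) and 3 with the block (3.96%). On leaving out 1 library it was 0 to 1. In active CT1 against vehicle OA 1 member was called higher in the fit of all 36 libraries, where 12.8% of all genes were called in either direction. In the difference between CT1 and CT2, 0 to 1 members were called higher on leaving out 1 library. Without inactive CT2 replicate 3, where it was 1, 7.02% of all genes were called in either direction. The same replicate number did not pair the libraries, with correlations of -0.12 to 0.093 between libraries of 1 number, and the block lost no call among these results other than Rpt2 and Rpn3 in OA against noOA and maf-S for CT1.

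In OA against noOA, FPKM that were not scaled between libraries shifted the median of all genes by 0.15, 0.17 and 0.083 (pseudocount 1, pseudocount 0.1, and 1 with no filter). There the log2 fold change reversed for Rpt5 (0.025, 0.026 and 0.025), Rpt2 (0.090, 0.092 and 0.090), Rpn3 (0.00095, 0.0017 and 0.00095) and Npl4 (0.017, 0.019 and 0.017), none past the threshold. These fits held noOA replicate 1, whose FPKM are on another scale, with 18S at 113244 FPKM. The members summed to 1843 FPKM in it, against 3450 to 4044 FPKM in the other noOA libraries. The part of this library in the shift and the reversals was not tested. The median of the members minus that of all genes moved with limma without a filter, to 0.088 for active CT1 against vehicle OA, 0.015 for inactive CT2, 0.082 for active against inactive CT1, 0.10 and -0.0074 for the differences of CT1 to CT3 and CT3 to CT2, 0.0068 for OA against noOA, -0.044 for vehicle OA against OA and -0.14 for the difference of the OA effects. On leaving out 1 library it ranged from 0.0068 to 0.091 for inactive CT2 and from -0.091 to -0.022 for the difference of the OA effects. The causes were not tested.

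The log2 ratio of regulatory to core FPKM, a description, moved with all 36 libraries, to 0.11, 0.045 and 0.034 for active CT1, CT2 and CT3, 0.082, 0.040 and 0.051 for inactive CT1, CT2 and CT3, -0.14 for vehicle noOA against noOA and -0.084 for vehicle OA against OA. With the median over members in place of the sum it moved to 0.036 for active CT2 against vehicle OA, 0.091 and 0.059 for active against inactive CT1 and CT2, 0.047 for vehicle OA against vehicle noOA and -0.018 for OA against noOA. Depth limits Rpt3R most, with at most 55 reads a library.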

Other observations

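Of the 2 libraries left out of the tests, vehicle OA replicate 3 had a core sum above both tested libraries of its group, and the part of its low depth in this was not tested. In vehicle OA replicate 3 the summed CPM was 2682 for the core and 3239.7 for the regulatory genes, where the tested vehicle OA libraries had 2367 and 2392 CPM for the core, and in vehicle noOA replicate 1 it was 2839 and 3405. Rpt6 had 128 CPM in vehicle OA replicate 3 and 142 CPM in vehicle noOA replicate 1, Prosbeta1 had 118 and 118 CPM, and Prosbeta5 331 and 368 CPM in the same 2 libraries.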
